A study of Rattus norvegicus with 12 samples.

Results

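Ccl2, Ccl3, Ccl4, Ccl5 and Ccl7 are the 5 CC chemokines for monocytes and T cells described here. They were followed in the cells of rat bronchoalveolar lavage fluid (BALF), the fluid rinsed from the airways and alveoli. Each was taken by the probe set of the array that names that gene and no other. These 5 genes, each with 1 such probe set, stand among 14218 genes that have a probe set of their own, and all 5 passed the filter on low values.

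Chemokines are small secreted proteins that guide leukocytes along their concentration gradient. The CC family is named for a pair of adjacent cysteines near the amino end. Ccl2 (MCP-1) and Ccl7 (MCP-3) bind the receptor Ccr2 and draw monocytes out of the blood, and Ccl7 also binds Ccr1 and Ccr3. Ccl3 (MIP-1 alpha) and Ccl4 (MIP-1 beta) are made quickly by activated macrophages. Both draw monocytes and T cells. Ccl5 (RANTES) is made in quantity by T cells and natural killer (NK) cells as well as by stimulated macrophages. In the lavage of a healthy lung most cells are alveolar macrophages, the resident phagocytes of the air spaces.

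The study asked how hypoxia bears on acute lung injury set off by lipopolysaccharide (LPS), a component of the outer membrane of Gram-negative bacteria. All animals were male Sprague-Dawley rats aged 8 weeks that had neither food nor water during the experiment. COMB rats received LPS and then entered the decompression chamber. LPS rats received LPS alone, at 0.5 mg/kg by tail vein. HPO rats spent 6 h in the chamber at 405.35 mmHg, the pressure of 5000 m altitude, which equals 11.2% oxygen. CTL rats received saline and breathed normal air. Each group had 3 Affymetrix rat genome arrays, each with pooled RNA of several rats. Pools are named by the rat numbers in the sample titles, which list 2 rats for 2 COMB pools (2 and 3, 10 and 11) and 3 rats (12, 13 and 14) for the third, where the study's methods describe 3 rats per pool. Whole lavage cells were measured, so fewer cells of a type and less RNA per cell cannot be told apart.

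Levels are given as linear array intensities of a probe set and are compared only within a gene. Array medians lay between 32.7 and 35.6, and arrays of 1 group correlated at r = 0.976 to 0.994. Differences are on the scale of log2(intensity + 1), which understates the change of dim genes, and come with limma's standard error and p value adjusted by Benjamini-Hochberg over 25692 probe sets. A gene is called when that adjusted p is under 0.05. The pools of a group carry different rat numbers, and the 3 pools per group limit the precision of every comparison. Of the markers of alveolar macrophages, 11 of 15 could be tested and 0 of these lay below the array median in all 12 arrays.

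All 5 chemokines were raised in COMB rats, and none was called in either single exposure. Ccl2 rose 14.2-fold in COMB pools over CTL pools, Ccl4 8.03-fold, Ccl5 6.46-fold, Ccl3 5.65-fold and Ccl7 2.97-fold. The count called was 5 of 5 higher in COMB against CTL, where 8.84% of all probe sets were called higher. It was 5 of 5 in COMB against LPS (6.64% of all probe sets) and 5 of 5 in COMB against HPO (6.83%). A t-test run per probe set on the same values, unpaired and with equal variance, called 0 of 5 in each of these comparisons after Benjamini-Hochberg adjustment, and 4, 5 and 4 of 5 against CTL, LPS and HPO without it. After adjustment it called few genes of the other lists described below. In COMB against CTL these were 2 of 19 airway epithelial markers, 2 of 11 alveolar macrophage markers, 1 of 10 other CC chemokines and 0 of 21 transcription factors. The study names Student's t-test in its statistics and a paired t-test for the arrays. Its criterion for differentially expressed genes was a fold change of at least 2 up or down, which all 5 folds over CTL given here exceed. The paired test was not run, since the study describes rats divided at random into groups and names no pairs of pools. The median difference of the 5 from CTL was 2.69, against -0.03 over all genes tested.

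The COMB pools stood clear of all other pools for each gene. The lowest COMB pool was 1.59 times the highest of the 9 other pools for Ccl2, 1.23 times for Ccl7, 1.80 times for Ccl3, 2.49 times for Ccl4 and 1.37 times for Ccl5. Of all probe sets, 5.33% separated the COMB pools upward from the other 9 in this way. The nearest other pool was the CTL pool of rats 5, 6 and 7 for 4 of the genes and the LPS pool of rats 2, 3 and 6 for Ccl4.

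**Figure D1:**
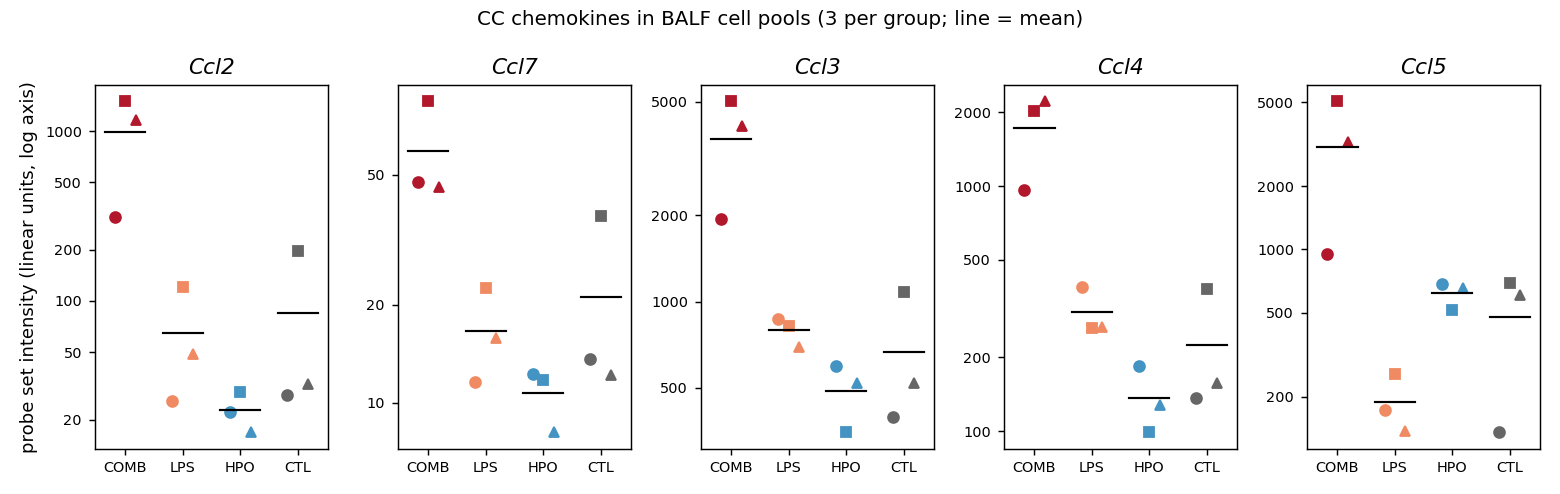
Probe set intensity (log axis, linear units) of each chemokine in every pool of COMB, LPS, HPO and CTL. Circles, squares and triangles are replicates 1, 2 and 3 of a group and black lines are means of the 3 pools. Every COMB pool lies above the other 9 pools for each gene, and the square of CTL (rats 5, 6 and 7) is the highest CTL pool in every panel.

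Ccl2, the main attractant of Ccr2-bearing monocytes, had the widest range. Its intensity was 311, 1493 and 1163 in the COMB pools of rats 2 and 3, rats 10 and 11, and rats 12, 13 and 14. It was 25.7, 120.1 and 48.5 in the LPS pools (rats 2, 3 and 6, rats 5, 7 and 11, rats 8, 9 and 10), 22.1, 29.1 and 16.9 in the HPO pools (rats 7, 8 and 9, rats 2, 4 and 11, rats 3, 5 and 12) and 28.0, 196 and 32.3 in the CTL pools (rats 1, 3 and 4, rats 5, 6 and 7, rats 8, 9 and 10). Every COMB pool exceeded every other pool, while LPS, HPO and CTL overlapped at levels that fell below the array median in 6 of 9 pools. COMB averaged 989 ± 609.9, LPS 64.8 ± 49.2, HPO 22.7 ± 6.14 and CTL 85.4 ± 95.6 (SD, 3 pools each). The COMB difference was 3.83 ± 0.76 from CTL (SE, limma adjusted p = 0.00447), 3.91 ± 0.76 from LPS (adjusted p = 0.00751) and 5.14 ± 0.76 from HPO (adjusted p = 0.00112). Among 12853 genes it was the most raised in COMB over LPS.

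Ccl7, the neighbour of Ccl2 in the genome and a ligand of the same receptor, was dimmer throughout. In the same order of pools its intensity was 47.7, 84.0 and 45.9 in COMB, 11.5, 22.4 and 15.7 in LPS, 12.3, 11.8 and 8.11 in HPO, and 13.6, 37.3 and 12.2 in CTL. All COMB pools were above the array median, against 0 of 3 LPS pools, 0 of 3 HPO pools and 1 of 3 CTL pools, so the lower side of each comparison lies in the dim range of the array. Means were 59.2 ± 21.5 in COMB, 16.6 ± 5.49 in LPS, 10.7 ± 2.27 in HPO and 21.0 ± 14.1 in CTL. COMB was higher by 1.57 ± 0.38 than CTL (adjusted p = 0.0128), by 1.77 than LPS (adjusted p = 0.0118) and by 2.32 than HPO (adjusted p = 0.00194). The call against CTL was lost on omission of CTL rats 1, 3 and 4 (adjusted p = 0.0583) or CTL rats 8, 9 and 10 (adjusted p = 0.0612), and the call against LPS without the LPS pool of rats 2, 3 and 6 (adjusted p = 0.0552).

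Ccl3, a macrophage chemokine for monocytes and T cells, measured 1950.3, 5005 and 4125 in the COMB pools, 868, 825 and 695 in the LPS pools, 597, 349 and 519 in the HPO pools, and 396, 1082 and 520.1 in the CTL pools. Outside COMB, the 3 LPS pools lay close together and above all HPO pools, and the CTL pools overlapped both. Means were 3693 ± 1572 in COMB, 796 ± 90.4 in LPS, 489 ± 127 in HPO and 666 ± 365 in CTL. The COMB difference was 2.50 ± 0.38 from CTL (adjusted p = 9.19e-04), 2.11 from LPS (adjusted p = 0.00518) and 2.84 from HPO (adjusted p = 6.13e-04).

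Ccl4, which is made by the same cells as Ccl3 and lies beside it in the genome, had the smallest adjusted p of the 5 in each COMB comparison. It measured 965, 2019 and 2217 in the COMB pools, 387, 265 and 265 in the LPS pools, 184, 98.9 and 128 in the HPO pools, and 137, 382 and 157 in the CTL pools. The order of groups was that of Ccl3, with every LPS pool above every HPO pool and CTL overlapping both. Means were 1734 ± 673 in COMB, 306 ± 70.4 in LPS, 137 ± 43.0 in HPO and 225 ± 136 in CTL. COMB exceeded CTL by 3.01 ± 0.40 (adjusted p = 3.81e-04), LPS by 2.43 (adjusted p = 0.00304) and HPO by 3.61 (adjusted p = 2.23e-04).

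Ccl5, the T cell and NK cell chemokine, followed another order, with HPO above LPS. Its intensity was 948, 5044 and 3237 in the COMB pools, 174, 255 and 137 in the LPS pools, 686, 515 and 657 in the HPO pools, and 135, 692 and 608 in the CTL pools. Every HPO pool exceeded every LPS pool, and CTL spread over the range of both. Means were 3076 ± 2053 in COMB, 189 ± 60.5 in LPS, 619 ± 91.9 in HPO and 478 ± 300 in CTL. COMB was higher by 3.76 ± 0.63 than LPS (adjusted p = 0.00345), the second largest rise of the 12853 genes, and by 2.69 ± 0.63 than CTL (adjusted p = 0.0109). Its rise over HPO was the weakest call of all, at 2.02 ± 0.63 (adjusted p = 0.0494), and it was lost on omission of COMB rats 10 and 11 (adjusted p = 0.168), of COMB rats 12, 13 and 14 (adjusted p = 0.137) or of any single HPO pool (adjusted p = 0.0907 to 0.131).

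The pools of COMB and CTL differed widely within their own group. The COMB pool of rats 2 and 3 was the lowest COMB pool for 4 of the 5 genes, with Ccl7 the exception, and the CTL pool of rats 5, 6 and 7 was the highest CTL pool for all 5. The highest COMB pool was 4.80 times the lowest for Ccl2 and 5.32 times for Ccl5, but 2.57 times for Ccl3, 2.30 times for Ccl4 and 1.83 times for Ccl7. With the pools of COMB rats 2 and 3 and CTL rats 5, 6 and 7 both left out, an alternative chosen after seeing the data, all 5 were still called in COMB against CTL (adjusted p = 1.23e-05 to 8.65e-04). Differences then ran between 2.19 for Ccl7 and 5.41 for Ccl2. Single pools moved the fold of Ccl2 and Ccl5 by over 1.5 times. Ccl2 in COMB against CTL was 26.2-fold once CTL rats 5, 6 and 7 were left out and 22.9-fold once COMB rats 2 and 3 were. Ccl5 was 10.5-fold without that COMB pool and 3.84-fold with CTL rats 1, 3 and 4 left out. A fit of the 6 COMB and CTL arrays alone called 3 of 5 and lost Ccl5 (adjusted p = 0.0677) and Ccl7 (adjusted p = 0.0565).

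Neither exposure alone gave a call for any of the 5 in the fit of all 12 arrays without weights. In LPS against CTL, 0 of 5 were called, where 0.868% of all probe sets were called higher and 1.18% lower. At an unadjusted p under 0.05 the count was 0 by limma and 0 by the unpaired t-test. The LPS difference was -0.08 for Ccl2 (95% interval -1.75 to 1.58), -0.19 for Ccl7 (-1.02 to 0.63), 0.39 for Ccl3 (-0.45 to 1.22), 0.57 for Ccl4 (-0.29 to 1.44) and -1.07 for Ccl5 (-2.45 to 0.30). The intervals leave room for changes of over 2-fold either way in Ccl2, upward in Ccl3 and Ccl4, and downward in Ccl5 and Ccl7. With limma array weights Ccl5 was called lower in LPS (-1.46, adjusted p = 0.0431).

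In HPO against CTL, 0 of 5 were called, where 0.0350% of all probe sets were called higher and 0% lower, and 0 of 5 had an unadjusted p under 0.05, again also by the unpaired t-test. The HPO difference was -1.31 for Ccl2 (95% interval -2.98 to 0.35), -0.75 for Ccl7 (-1.58 to 0.08), -0.35 for Ccl3 (-1.18 to 0.49), -0.60 for Ccl4 (-1.47 to 0.26) and 0.67 for Ccl5 (-0.70 to 2.05). The CTL pool of rats 5, 6 and 7 lay above every HPO pool for all 5 genes, by the least for Ccl5, where the highest HPO pool measured 686, against 692 in that CTL pool.

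Between the single exposures, Ccl3 and Ccl4 had higher values in every LPS pool than in any HPO pool, and Ccl5 lower ones. Over all probe sets, 10.2% separated upward and 17.3% downward in this comparison. None of the 5 was called in LPS against HPO, where 2.59% of probe sets were called higher and 4.60% lower. Of the 5, 2 had an unadjusted p under 0.05 by limma and 3 by the unpaired t-test. The LPS minus HPO difference was 1.17 for Ccl4 (limma adjusted p = 0.103) and -1.75 for Ccl5 (adjusted p = 0.128). Fitting these 6 arrays alone called both (adjusted p = 0.0210 for Ccl4 and 0.00334 for Ccl5).

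Ranked by mean level, Ccl2 and Ccl7 ran COMB, CTL, LPS, HPO, Ccl3 and Ccl4 ran COMB, LPS, CTL, HPO, and Ccl5 ran COMB, HPO, CTL, LPS. The place of CTL above LPS in Ccl2 and Ccl7 rests on the CTL pool of rats 5, 6 and 7, since without it LPS minus CTL was 0.80 for Ccl2 and 0.29 for Ccl7 on the log2 scale. Only the step below COMB was called, and no pair among LPS, HPO and CTL was called for any of the 5, in the fit of all 12 arrays without weights.

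**Figure D2:**
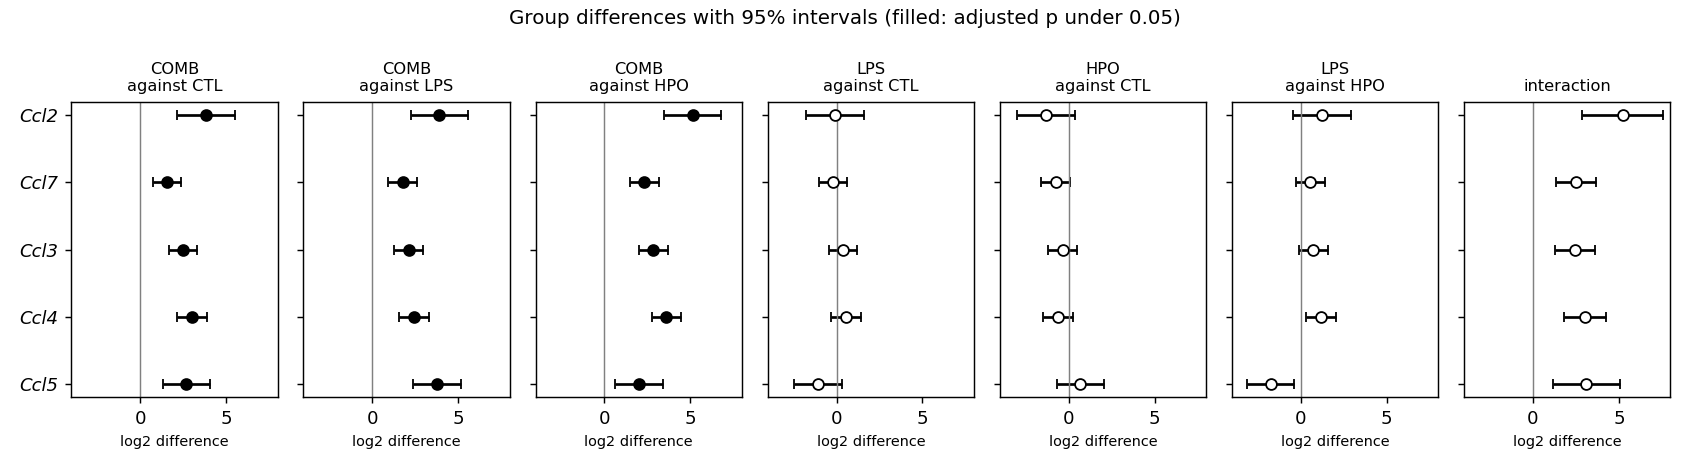
Log2 difference with its 95% interval for each chemokine (rows) in 6 group comparisons, each in its own panel. The last panel plots the effect of hypoxia in LPS rats minus its effect in rats without LPS (interaction). Filled points have a limma adjusted p under 0.05 and fill the 3 COMB panels only, while the interaction intervals lie above 0 with open points.

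The interaction is the step from LPS to COMB less the step from CTL to HPO, and asks whether both exposures together depart from the sum of the single ones on the log2 scale. It was 5.22 ± 1.08 for Ccl2 (SE, limma adjusted p = 0.0809), the largest of the 12853 genes, 3.04 for Ccl4 (adjusted p = 0.0629), 3.09 for Ccl5 (adjusted p = 0.181), 2.52 for Ccl7 (adjusted p = 0.0844) and 2.46 for Ccl3 (adjusted p = 0.0900). None of the 5 was called, where 0.0895% of all probe sets were called higher and 0.0467% lower, although 5 of 5 had an unadjusted p under 0.05. Once COMB rats 2 and 3 were left out, all 5 were called (adjusted p = 0.00961 to 0.0367), and calls over all probe sets went up to 643, against 35 with every pool. Leaving out any other single pool called 0 of 5.

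On the linear scale the COMB difference from CTL was positive and the sum of the single differences negative for each gene. COMB minus CTL was 904 for Ccl2, 38.2 for Ccl7, 3028 for Ccl3, 1509 for Ccl4 and 2598 for Ccl5. The sum of the LPS and HPO differences from CTL was -83.3 for Ccl2, -14.8 for Ccl7, -47.2 for Ccl3, -7.97 for Ccl4 and -149 for Ccl5. The sign of these sums rests on the CTL pool of rats 5, 6 and 7. Without it, an alternative chosen after seeing the data, the sums were 27.1 for Ccl2, 1.51 for Ccl7, 369 for Ccl3, 148 for Ccl4 and 64.9 for Ccl5, and COMB minus CTL was 959, 46.3, 3235, 1587 and 2705 for the genes in that order. The linear interaction was called for 0 of 5 by limma (adjusted p = 0.190 to 0.430).

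The 5 genes lie in clusters on rat chromosome 10 in the RefSeq annotation of GRCr8. Ccl2 and Ccl7 are neighbours, followed by Ccl11, Ccl12 and Ccl1. After 27 other protein-coding genes come Ccl5, Ccl9, Ccl6, Ccl3 and Ccl4, with 0 protein-coding genes between them. The neighbours Ccl9 and Ccl6, which are macrophage chemokines in mice, were not called in COMB against CTL, at 0.39 (adjusted p = 0.0763) for Ccl9 and 0.06 (adjusted p = 0.684) for Ccl6. Ccl9 was called higher in LPS against CTL (0.67, adjusted p = 0.0379), in COMB against HPO (0.72, adjusted p = 0.00547) and in LPS against HPO (1.00, adjusted p = 0.00287). Ccl11, the eosinophil attractant eotaxin, did not pass the filter on low values (intensity 5.17 to 7.73).

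Ccl7 was the 1 member of 5 with an entry in the RefSeq promoter table used here. Its 250 bases before the start site are shown as the promoter of a chemokine raised in COMB, beside motifs of factors that respond to LPS and to hypoxia. They lie at chr10:67513845-67514094 of GRCr8 on the plus strand, with motif matches in capitals.
Ccl7 promoter: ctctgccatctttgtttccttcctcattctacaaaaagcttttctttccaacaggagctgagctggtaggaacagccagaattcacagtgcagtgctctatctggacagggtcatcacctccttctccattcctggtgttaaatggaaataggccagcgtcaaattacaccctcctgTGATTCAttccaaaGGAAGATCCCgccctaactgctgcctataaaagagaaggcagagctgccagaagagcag
The first capitals, TGATTCA, match the AP-1 motif TGANTCA and begin 73 bases before the start. The second, GGAAGATCCC, match the NF-kB motif on the opposite strand and begin 59 bases before it. Both strands of the 300 bases from 250 before to 50 after the start were searched, and the motifs do not overlap. The hypoxia response core ACGTG or GCGTG had 0 matches there. Among 33469 rat promoters of that length, 7.51% held the NF-kB motif, 7.33% the AP-1 motif and 41.6% the hypoxia core.

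Across the 12 arrays the levels of the 5 genes went together to different degrees. These correlations are descriptions over arrays that share the 4 groups. Pearson's r was 0.989 between Ccl3 and Ccl4, 0.971 between Ccl2 and Ccl7 and 0.943 between Ccl2 and Ccl3. Ccl5 stood further off, at r = 0.698 with Ccl7 to 0.771 with Ccl3.

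The genes with the most similar pattern among 12852 others differed accordingly. For Ccl2 they were Mmp9 (r = 0.977), a matrix protease stored in neutrophil granules, Ccl7 (r = 0.971) and Car4 (r = 0.965), a carbonic anhydrase. For Ccl3 they were Ccl4 (r = 0.989), Tapbp (r = 0.987), which loads peptide on MHC class I, and Gpr84 (r = 0.982), a receptor for medium-chain fatty acids on phagocytes. For Ccl4 they were Ccl3, Gpr84 (r = 0.977) and Bcl3 (r = 0.976), a nuclear partner of NF-kB. For Ccl7 they were Ccl2, Birc3 (r = 0.952), an inhibitor of apoptosis, and Mmp9 (r = 0.942).

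For Ccl5 the most similar genes were lymphocyte genes. They were Cd3e (r = 0.976), a chain of the T cell receptor complex, Ptprcap (r = 0.973), which binds the phosphatase CD45, and Gimap4 (r = 0.961), a lymphocyte GTPase. Cd3e measured 213, 1319 and 762 in the COMB pools, 69.9, 134 and 58.3 in the LPS pools, 168, 156 and 145 in the HPO pools, and 67.1, 233 and 188 in the CTL pools. As with Ccl5, its lowest COMB pool was that of rats 2 and 3 and every HPO pool exceeded every LPS pool. Cd3e was higher in COMB by 2.06 than in CTL (limma adjusted p = 0.0305) and by 2.86 than in LPS (adjusted p = 0.0102). Since Cd3e was picked for its correlation with Ccl5 over these same arrays, these shared features are built into that choice. They are no separate test of a link between the genes.

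Markers of other cells that a lavage can hold were counted beside these results, where the shares of all probe sets called in COMB against CTL were 8.84% higher and 10.2% lower. Of 13 tested T cell markers, 4 were higher and 0 lower in COMB against CTL by limma, namely Cd3e, Zap70, Cd8b and Cd2. The unpaired t-test passed 0 of 13 there even without adjustment. For each of these 4 the lowest COMB pool lay below the highest CTL pool. In COMB against LPS, 9 of 13 were higher by limma and 5 passed the t-test without adjustment. The summed intensity of the 13 T cell markers was 1271 to 6219 in COMB, 600.2 to 1072 in LPS, 937 to 1039 in HPO and 642 to 1733 in CTL, with Cd4 and Cd28 below the array median in all 12 arrays. Of 12 NK cell markers, 1 (Ctsw) was higher and 0 lower in COMB against CTL by limma, a share close to that of all probe sets. The unpaired t-test without adjustment passed 0 of 12. The NK cell sum was 650.2 to 5895 in COMB, 449 to 556 in LPS, 378 to 743 in HPO and 327 to 2871 in CTL, with Eomes below the median in every array. The COMB pool of rats 2 and 3, lowest of COMB in Ccl5 as in Ccl2, Ccl3 and Ccl4, had the lowest COMB sum of both lists, though not of every list given below. Of 6 B cell markers, 0 were called by limma (1 at an unadjusted p under 0.05, 0 by the unpaired t-test), with sums of 138 to 582 in COMB, 149 to 164 in LPS, 126 to 185 in HPO and 156 to 349 in CTL, and Cr2 below the median in all arrays. The part of these cells in the Ccl5 result was not tested.

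Among 10 markers of recruited monocytes, 5 were higher in COMB against CTL (Chi3l1, Ly6c, Cd14, Itgam and Vcan) and Csf1r was lower. Their sum was 6429 to 8846 in COMB, 3315 to 5605 in LPS, 1947 to 2672 in HPO and 1920.0 to 4030.4 in CTL. Ccr2, the receptor of Ccl2 and Ccl7 that marks these cells, did not pass the filter (intensity 6.01 to 11.4). Of 8 neutrophil markers, S100a9, S100a8 and Mmp9 were higher and Camp lower, with sums of 5880.5 to 9265 in COMB, 3822 to 4683 in LPS, 2704 to 3266 in HPO and 3429 to 5628 in CTL and Mmp8 below the median in all arrays. Of 11 alveolar macrophage markers, Car4 was higher and Cidec, Pparg, Lpl, Krt79 and Abcg1 were lower, with sums of 21853 to 24290.1 in COMB, 27240.1 to 29931 in LPS, 26757 to 26923 in HPO and 25856 to 28188 in CTL. The lowest COMB pool lay below the highest CTL pool for Vcan (209, against 256), S100a9 (1820, against 2011) and Car4 (64.9, against 72.3). The unpaired t-test in COMB against CTL passed 5 of 10 monocyte, 3 of 8 neutrophil and 6 of 11 macrophage markers without adjustment. After adjustment it passed 0, 0 and 2. The CTL pool of rats 5, 6 and 7 had the highest CTL sum of the T cell, NK cell, monocyte and neutrophil lists. It also had the highest CTL sum of the erythrocyte and platelet markers (12094, against 2604 and 5853 in the other CTL pools). The same held for the endothelial and fibroblast markers, while its alveolar macrophage sum was the lowest of CTL (25856). Its B cell and epithelial sums were not the highest of CTL.

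Epithelial markers rose too, 17 of 19 for the airway and 8 of 13 for the alveoli in COMB against CTL, with 0 lower. The airway sum was 29101 to 39271 in COMB, 18798 to 21413 in LPS, 21087 to 22435 in HPO and 8731 to 12602 in CTL, so it was above CTL in the LPS and HPO pools as well. The alveolar epithelial sum was 3762 to 5075 in COMB, 2206 to 2998 in LPS, 2423 to 2727 in HPO and 1893 to 2813 in CTL. Of 10 endothelial and fibroblast markers 1 was higher (Pecam1) and 0 lower, with sums of 316 to 1168 in COMB, 287 to 449 in LPS, 370.2 to 484.5 in HPO and 248.97 to 391.95 in CTL, and Kdr and Pdgfrb below the median in all arrays. Of 7 erythrocyte and platelet markers 1 was higher (Pf4) and 0 lower, with sums of 9953 to 12974 in COMB, 6517 to 11483 in LPS, 8031 to 11863 in HPO and 2604 to 12094 in CTL, and Gp9 and Ppbp below the median in all arrays. The COMB pool of rats 2 and 3, lowest of COMB in 4 of the 5 chemokines, had the highest COMB sum of both epithelial lists (39271 and 5075). It also had the highest COMB sum of the endothelial and fibroblast list (1168, against 316 and 436) and of the alveolar macrophage list (24290.1). The part of monocytes, neutrophils, macrophages, epithelium and these other cells in the chemokine results was not tested.

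**Figure D3:**
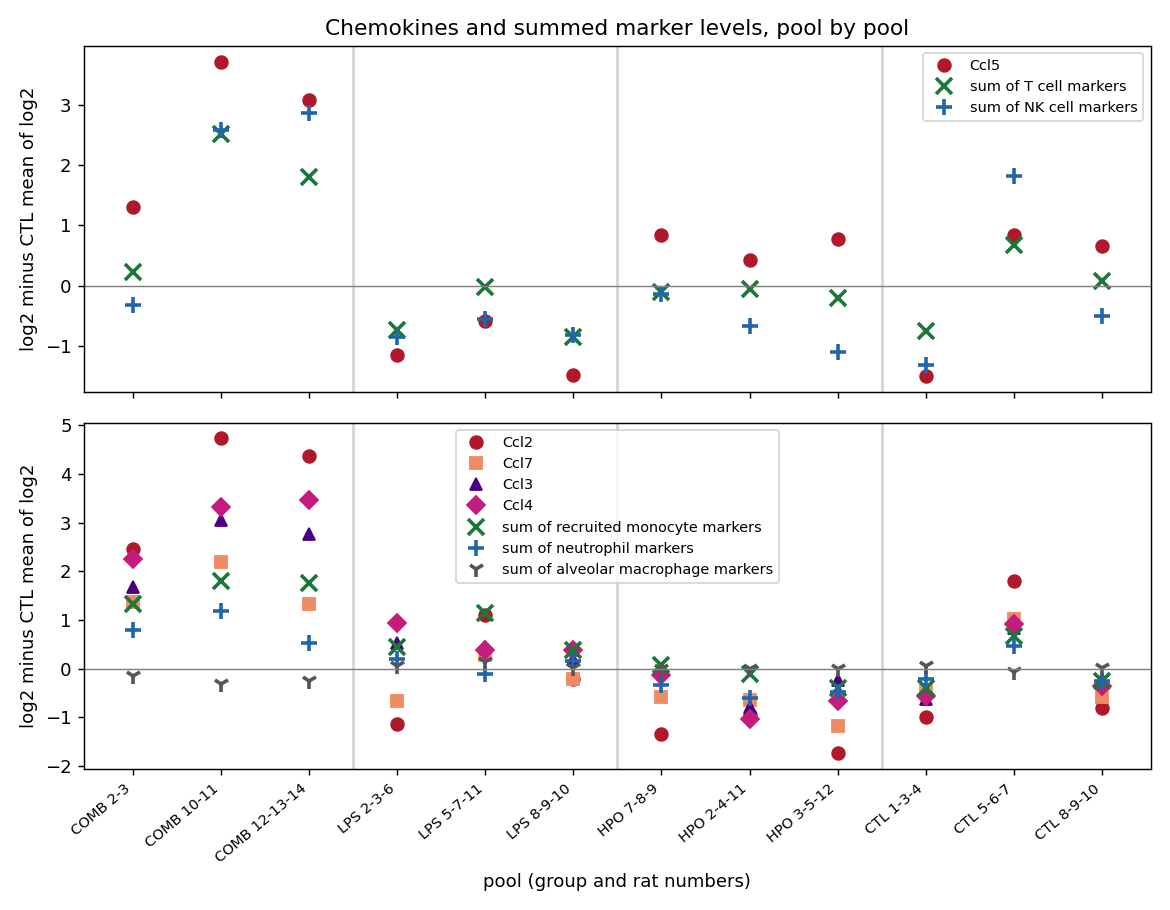
Each pool's log2 level minus the CTL mean of log2 levels, for Ccl5 with the summed T cell and NK cell markers (upper panel) and for the other chemokines with the summed monocyte, neutrophil and alveolar macrophage markers (lower panel). The x axis gives the pools by group and rat numbers. Ccl5 and the lymphocyte sums are all lowest of COMB in the pool of rats 2 and 3, as are Ccl2, Ccl3, Ccl4 and the monocyte sum. The neutrophil sum is lowest of COMB in the pool of rats 12, 13 and 14, and the macrophage sum is highest of COMB in that of rats 2 and 3. The macrophage sums lie below the CTL mean in every COMB pool.

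Ccl20, Ccl17, Ccl22 and Ccl19 were the other CC chemokines called higher in COMB against CTL. Of 16 other listed members 10 could be tested, and 4 were higher and 0 lower in COMB against CTL, with a median difference of 0.34 against -0.03 over all genes. Ccl20, the ligand of Ccr6, measured 1589.9, 1470.1 and 1357 in the COMB pools, 233, 211 and 193 in the LPS pools, 45.7, 33.8 and 46.6 in the HPO pools, and 35.9, 29.8 and 32.4 in the CTL pools. It was higher in COMB than in CTL by 5.45 (adjusted p = 8.63e-10) and, unlike the 5 chemokines, was also called in LPS against CTL (2.66, adjusted p = 1.34e-06). Ccl17, a ligand of Ccr4, rose by 1.90 (adjusted p = 0.00123), Ccl22, which shares that receptor, by 0.84 (adjusted p = 0.0405) and Ccl19, a ligand of Ccr7, by 0.84 (adjusted p = 0.0121) in COMB against CTL. The lowest COMB pool of Ccl22, at 25.9, lay below its highest CTL pool, at 26.9. In COMB against LPS, Ccl20 (2.79, limma adjusted p = 2.30e-06) and Ccl17 (1.37, adjusted p = 0.0139) were called. Ccl22 (0.73, adjusted p = 0.0915) and Ccl19 (0.20, adjusted p = 0.547) were not.

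**Figure D4:**
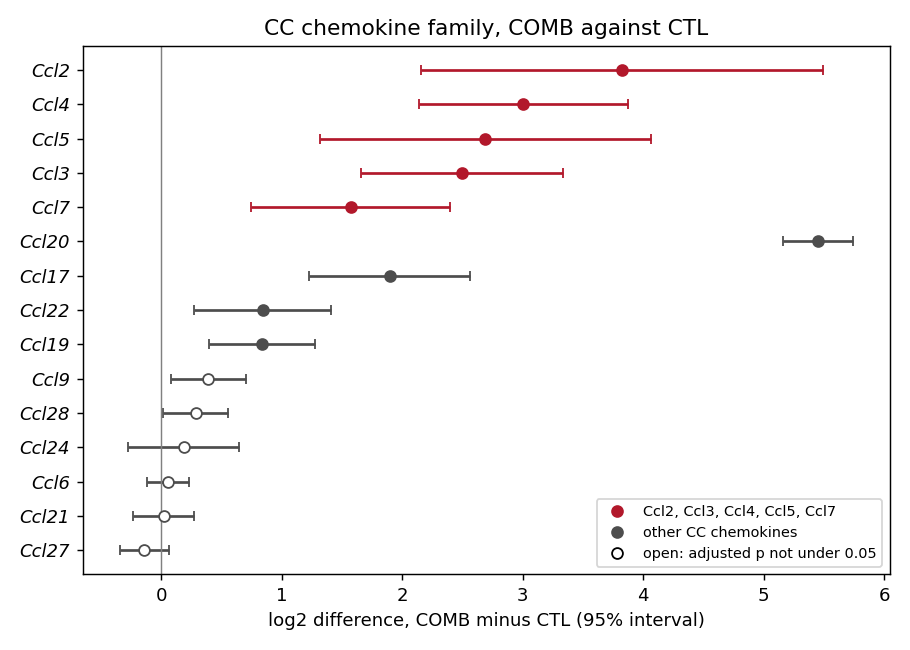
Log2 difference of COMB minus CTL with its 95% interval for the 5 chemokines (red) and the 10 other CC chemokines tested (grey). Filled points have a limma adjusted p under 0.05, which all 5 and Ccl20, Ccl17, Ccl22 and Ccl19 reach.

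No receptor of the CC family was called in COMB against CTL. Of 15 CC chemokine receptors and scavengers 9 could be tested, and 0 were called in COMB against CTL by limma (2 at an unadjusted p under 0.05, 1 by the unpaired t-test), with a median difference of -0.01. Ccr1, a receptor of Ccl3, Ccl5 and Ccl7, differed by 0.24 (adjusted p = 0.230) from CTL and was called in COMB against LPS (0.50, adjusted p = 0.0305). Ccrl2, a receptor that binds chemerin without signalling, differed by 1.49 from CTL (adjusted p = 0.216) and was called in COMB against HPO (2.82, adjusted p = 0.0299). Ccr6, the receptor of Ccl20, differed by 1.64 from CTL (adjusted p = 0.0991). The scavengers Ackr4 and Ackr2 differed from CTL by -1.57 (adjusted p = 0.120) and -0.30 (adjusted p = 0.183). Ackr1, Ackr2, Ccr10, Ccr3 and Ccr4 lay below the array median in all 12 arrays.

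Transcription factors that act on chemokine genes rose in part. Of 21 tested, 10 were higher and 1 lower in COMB against CTL (8.84% and 10.2% of all probe sets), 4 higher in COMB against LPS (6.64%), 11 higher in COMB against HPO (6.83%), 1 higher in LPS against CTL (0.868%) and 0 in HPO against CTL by limma (4 at an unadjusted p under 0.05, 3 by the unpaired t-test). Nfkbiz, an inducible nuclear partner of NF-kB, measured 765, 920.3 and 991 in the COMB pools, 449.7, 518 and 306 in the LPS pools, 132, 107 and 148 in the HPO pools, and 113, 258 and 159.7 in the CTL pools. It was the 1 factor called in LPS against CTL (1.31, adjusted p = 0.0329) and rose by 2.40 in COMB against CTL (adjusted p = 1.33e-04). Irf7 rose by 2.25 (adjusted p = 0.0313), Irf1 by 1.44 (adjusted p = 0.0314) and Nfkb2, a gene of the NF-kB family, by 1.08 (adjusted p = 0.00268), where Irf7 and Irf1 are interferon regulatory factors. The lowest COMB pool of Irf1, at 604, lay below the CTL pool of rats 5, 6 and 7, at 826. For Irf7 the lowest COMB pool measured 1264, against 1251 in that CTL pool. Cebpb fell by 0.30 (adjusted p = 0.0284).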

How the data were processed

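Total RNA of BALF cells was pooled within groups and hybridised to 12 Affymetrix Rat Genome 230 2.0 arrays. The deposited intensity values are linear, 1 per probe set and array, and were made by the authors from the scanned arrays. Their methods name the software but no normalization. The values were used as deposited, since array medians differ little. Of 31099 probe sets, 57 controls were left out and 25692 passed a filter (above the 20th percentile of the own array in at least 3 arrays). Probe sets were named from GEO's platform annotation, 20832 with 1 gene, 436 with several and 9831 with none. limma 3.58.1 in R 4.3.3 fitted 4 group means to log2(intensity + 1) over all 12 arrays (8 residual degrees of freedom), and p values were adjusted by Benjamini-Hochberg, with 0.05 as the threshold. The fit was tested on simulated data. A gene of the lists was represented by its probe set of highest mean, and named list genes are the called ones with the largest difference in COMB against CTL. Beside them stand the 3 genes most correlated with each member and the receptors and neighbours of the members, chosen after their values were seen. The members, lists and tests were chosen with earlier results of these data known. A t-test was run per probe set, unpaired and with equal variance, where the study's methods name Student's t-test in general and a paired one for the arrays. The study's criterion for differentially expressed genes was a fold change of at least 2 up or down. Alternatives were other normalizations, filters, pseudocounts, weights, variance models and fits, and the omission of each array. The columns of the table were all assigned to a sample. No scan date or other batch was analysed here.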

Additional observations from a re-analysis of the deposited data

How the results depend on the processing

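Of 625 values of the 5 chemokines under alternatives, 571 stayed on their side of the threshold, among them 9 uncalled values whose sign turned (Ccl2 and Ccl7 in LPS against CTL, Ccl3 and Ccl5 in HPO against CTL), 31 were no longer called, 23 were newly called and 0 called values reversed. The unpaired t-test with Benjamini-Hochberg adjustment called 0 of 5 in COMB against CTL, COMB against LPS and COMB against HPO, and without adjustment 4, 5 and 4. Fits of the 2 groups alone called 3 of 5 in COMB against CTL and 2 in LPS against HPO. Array weights called 1 in LPS against CTL, 2 in LPS against HPO and 5 in the interaction, where calls over all probe sets were 2116, against 35 without weights. The t-test without adjustment passed 3 in LPS against HPO. Without COMB replicate 1 (rats 2 and 3) the interaction called 5, as it did with the CTL pool of rats 5, 6 and 7 also left out (5), an alternative added after the data were seen. Leaving out each array in turn gave 4 to 5 called in each of the 3 COMB comparisons, 0 to 0 in the other 3 and 0 to 5 in the interaction. Ccl5 in COMB against HPO was also lost with no filter (adjusted p = 0.0596), pseudocount 16 (0.0557), a trended robust fit (0.114) and the 2 groups alone (0.0598).

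In LPS against CTL, a replicate block by shared rat numbers called 0 of 5 chemokines and 736 probe sets, against 525 without it. Deviations of pools with shared numbers correlated at 0.039, -0.0467, -0.0076 and -0.0016, and not every pool correlated best with its own numbers. With so few pools per group, these correlations cannot decide whether shared numbers pair the pools. The study describes rats divided at random into groups and names no pairs of pools. No other probe set per gene could be tried, as each chemokine has 1. The interaction was not run with the t-test or 2 groups alone. Arrays carry no read depth, and Ccl7 and Ccl2 are the 2 chemokines with pools below the array median, where the signal limits the size of a fold.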
